A study of Mus musculus with 12 samples.

Results

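The comparison described here is the step from DN3 to DN4 in IkL/L thymocytes. It rests on the 4 arrays whose labels give that genotype and either of these stages, 2 of DN4 and 2 of DN3 cells, out of 12 arrays in the series, and on every probe set with 1 gene symbol (34958 of 45099). The series measured RNA of mouse thymocytes sorted as DN3, DN4 or DP cells from IkL/L or wild-type (WT) mice, in 6 groups of 2 arrays. The groups compared below are IkL/L DN4, IkL/L DN3, WT DN4 and WT DN3, all from thymus, untreated as far as the labels go. The DP arrays entered the estimate of spread, and their values are shown for a few genes. Each sort pooled the cells of 3 mice, and no label says whether the arrays of a group came from separate pools, so the p-values measure the spread between these arrays. The 2 arrays of each IkL/L stage differed in Y-linked signal, as given below, so they did not come from 1 pool. For the WT groups this is not known. Age, sex, strain and sorting gates are not given in the labels. The series describes the IkL/L genotype as Ikaros-deficient: the allele is known as a reporter insertion in the Ikaros gene that lowers, without abolishing, the amount of Ikaros protein in all cells that use the gene.

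DN3 and DN4 thymocytes are early T cell precursors with neither CD4 nor CD8 on their surface. DN3 cells rearrange the T cell receptor beta locus under Notch and interleukin signals. A cell whose beta chain pairs with the pre-T alpha chain receives a pre-TCR signal, loses CD25 (the product of Il2ra), divides rapidly and passes through DN4 to the DP stage, where both co-receptors appear. Ikaros is encoded by Ikzf1. It is a DNA-binding zinc-finger protein of lymphoid cells and is known in mouse thymocytes to restrain Notch target genes.

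The median signal of an array was 5.14 to 5.22 (log2) and its 75th percentile 7.34 to 7.57. With 2 arrays in a group, precision is limited by their number. The pair of IkL/L DN3 arrays correlated across genes with r = 0.9865 and the pair of IkL/L DN4 arrays with r = 0.9935. Replicate 2 of both IkL/L stages had no Y-linked signal: Eif2s3y read 8.39 on DN4 replicate 1 and 3.12 on DN4 replicate 2, against 8.81 on DN3 replicate 1 and 2.82 on DN3 replicate 2, so that each stage held 1 array of either kind. Neutrophil genes such as S100a8 were higher on replicate 1 of both stages and are described with the other cell type markers. As a sign of RNA or labelling quality, the 3' actin control signal exceeded the 5' one by 1.93 and 2.39 in IkL/L DN4 cells and by 1.92 and 2.86 in IkL/L DN3 cells. Its part in the results was not tested beyond the covariate among the alternatives.

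In limma, 512 of 11649 tested genes (4.40%) passed a Benjamini-Hochberg adjusted p of 0.05 in the IkL/L step. Of these, 140 (1.20%) were higher and 372 (3.19%) were lower in DN4 cells. The losses were also the deeper changes: the median log2 difference was -1.0 among the lower genes and 0.74 among the higher ones, and 186 lower but 37 higher genes differed by at least 1 on the log2 scale. Over all tested genes the median was -0.002. All 512 had IkL/L DN4 arrays that lay wholly above or below the DN3 arrays, which was the case for 20.5% (above) and 23.8% (below) of all tested genes. The balance depended on single arrays: without IkL/L DN3 replicate 1 the test called 322 genes higher and 252 lower, without IkL/L DN3 replicate 2 it called 78 and 418, without IkL/L DN4 replicate 1 it called 42 and 208, and without IkL/L DN4 replicate 2 it called 49 and 162. With the 4 IkL/L arrays fitted alone, 33 genes were higher and 188 lower.

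Of the 372 lower genes, 56 read below the array median on both DN4 arrays, where signal may be mostly background, so their differences are lower limits of those in RNA. Another probe set of the same gene passed the brightness filter for 239 of the 512 genes. Among these 415 other probe sets 394 (94.9%) had the same sign, 118 (28.4%) were called the same way and 0 the other way. In bulk samples, fewer cells of a type and less RNA per cell cannot be told apart.

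Ikzf1 itself did not pass the test in the step. It read 11.22 and 11.18 in IkL/L DN4 cells and 11.23 and 11.23 in IkL/L DN3 cells, a log2 difference of -0.03 ± 0.12 (SE; adjusted p = 0.94). The stage labels were checked against textbook markers. Il2ra, whose product CD25 parts DN3 from DN4 cells and is a usual sorting marker, read 5.08 and 5.27 in IkL/L DN4 cells and 10.30 and 10.50 in IkL/L DN3 cells. The arrays of the stages did not overlap, and the DN4 level lay at about the array median. Cd44, which marks the stages before DN3, read 4.61 and 4.13 in DN4 cells and 4.88 and 4.47 in DN3 cells, below the array median on all 4 arrays.

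**Figure D1:**
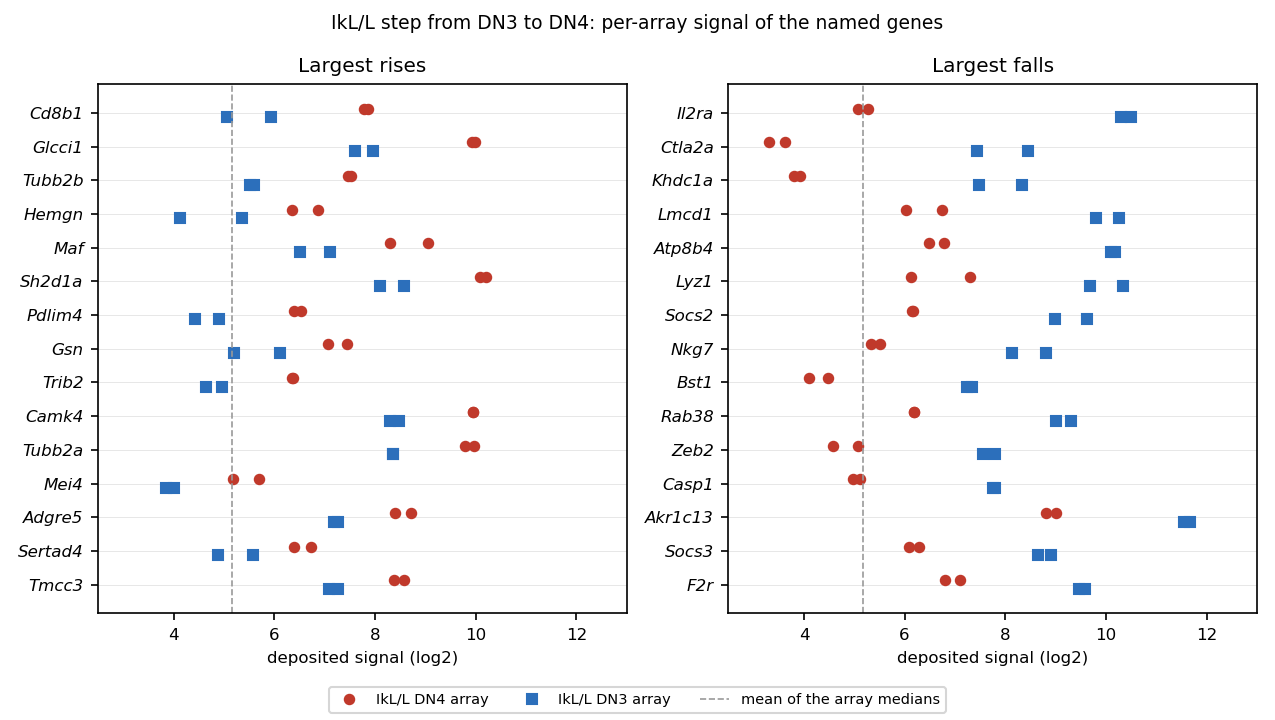
Deposited signal (log2, horizontal axis) of the genes with the largest called rises (left panel) and falls (right panel) in the IkL/L step; circles are the 2 IkL/L DN4 arrays, squares the 2 IkL/L DN3 arrays, and the dashed line is the mean of the array medians. The naming rule took only genes whose DN4 points lie wholly to 1 side of the DN3 points. Several of the DN4 points in the right panel (Ctla2a, Khdc1a, Bst1, Zeb2) lie left of the dashed line.

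The deepest loss was that of Il2ra, 37.4-fold lower in IkL/L DN4 cells (log2 difference -5.22 ± 0.21, SE; adjusted p = 1.91e-07). Since CD25 may have been used in the sort, this value checks the labels. Ctla2a, which encodes an inhibitor of cathepsin-like proteases, read 3.63 and 3.30 in DN4 cells and 8.46 and 7.43 in DN3 cells (-4.48 ± 0.29; adjusted p = 5.73e-06). Khdc1a (-4.04) and the phospholipid flippase gene Atp8b4 (-3.50) followed it, and Lmcd1, which encodes a LIM-domain transcriptional cofactor, fell by 3.64. Socs2, which encodes an inhibitor of cytokine signalling, read 6.16 and 6.15 in DN4 cells and 9.63 and 8.98 in DN3 cells (-3.15 ± 0.19; adjusted p = 3.53e-06). Its relative Socs3 fell by 2.59.

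The other deep falls were of mixed function. Nkg7, a gene of cytotoxic granules, read 5.34 and 5.52 in DN4 cells and 8.81 and 8.14 in DN3 cells (-3.05 ± 0.22; adjusted p = 1.13e-05). Lyz1 (-3.31), which encodes a lysozyme, Bst1 (-3.00), which encodes the surface enzyme CD157, and Casp1 (-2.73), which encodes the inflammasome caspase, were lower too. So were Rab38 (-2.96), a gene for a small GTPase of lysosome-related organelles, the repressor gene Zeb2 (-2.85), the aldo-keto reductase gene Akr1c13 (-2.71) and the thrombin receptor gene F2r (-2.57). F2r and Socs3 were low in DN4 cells alone among the 3 stages: Socs3 read 6.28 and 6.08 in IkL/L DN4 cells, against 8.64 and 8.90 in IkL/L DN3 cells, and 9.92 and 10.35 in IkL/L DP cells. Of these 15 falls, 14 stayed called when any 1 array was left out, and Lyz1 lost its call without IkL/L DN4 replicate 2 (adjusted p = 0.094). The second bright probe set of Socs2 gave -0.61 (adjusted p = 0.153), whereas the third gave -4.11. For Socs3 the second gave -2.32 (adjusted p = 0.00098) and the third -0.5 (adjusted p = 0.154).

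Cd8b1, which encodes the CD8 beta chain of the co-receptor, was the gene that rose most. It read 7.86 and 7.78 in IkL/L DN4 cells and 5.93 and 5.06 in IkL/L DN3 cells, 5.01-fold higher (log2 difference 2.33 ± 0.22, SE; adjusted p = 0.000115). Glcci1, known as a gene induced by glucocorticoids in thymocytes, read 9.98 and 9.93 in DN4 cells and 7.96 and 7.6 in DN3 cells (2.17 ± 0.19; adjusted p = 3.87e-05). The stages did not overlap for either gene, which held for all 512 called genes. The beta-tubulin genes Tubb2b (1.94) and Tubb2a (1.52) were also among the largest rises. The second bright probe set of Tubb2a gave 0.32 (adjusted p = 0.515). Whether the probe sets tell these related genes apart was not tested.

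Sh2d1a, which encodes the adaptor SAP of SLAM-family receptors, read 10.20 and 10.08 in IkL/L DN4 cells and 8.58 and 8.09 in IkL/L DN3 cells (1.8 ± 0.16; adjusted p = 7.39e-05). Camk4 (1.56), which encodes a calcium-dependent kinase of T cells, rose with it. The transcription factor gene Maf (1.88), the nuclear protein gene Hemgn (1.88), the LIM-domain gene Pdlim4 (1.79), the actin-severing protein gene Gsn (1.61) and the pseudokinase gene Trib2 (1.56) were higher in DN4 cells. Mei4 (1.51), a meiosis gene, Adgre5 (1.33), which encodes the adhesion receptor CD97, Sertad4 (1.32) and Tmcc3 (1.30) complete the 15 largest rises. The calls of Gsn, Sertad4 and Tmcc3 were lost without at least 1 of the 4 IkL/L arrays (adjusted p up to 0.0549, 0.135 and 0.0602), and the other 12 stayed called. With the 4 arrays alone, Hemgn lost its call as well (adjusted p = 0.0793).

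Over all tested genes 1.20% were called higher and 3.19% lower, the shares to set beside the count of each list below. Genes that mark the DN3 stage or the pre-TCR were lower or did not pass. Of 18 tested members of this list 4 fell (Il2ra, Notch3, Spib and Cdh1) and 0 rose, with a median of -0.28 against -0.002 over all genes. Leaving out IkL/L DN3 replicate 1 gave a median of -0.14. Notch3, a Notch receptor gene that is itself a Notch target, read 8.88 and 9.29 in IkL/L DN4 cells and 10.97 and 10.90 in IkL/L DN3 cells (-1.85 ± 0.15; adjusted p = 3.43e-05). Spib, an Ets-family factor gene of DN3 and dendritic cells, fell by 1.64 to a level below the array median. Ptcra, the pre-T alpha chain gene, read 9.77 and 9.81 in DN4 cells and 10.27 and 10.03 in DN3 cells, a difference of -0.36 (adjusted p = 0.383).

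The recombinase genes showed overlapping or near-equal stages. Rag1 read 12.04 and 12.15 in IkL/L DN4 cells, between the 12.52 and 11.96 of the IkL/L DN3 arrays (-0.15; adjusted p = 0.741). Rag2 (0.08; adjusted p = 0.876) and Dntt (-0.09; adjusted p = 0.773), which encodes the terminal transferase, did not pass either. None of the 14 tested genes of V(D)J recombination and end joining was called in limma, and they had a median of 0.07, which became 0.22 when IkL/L DN3 replicate 1 was left out and -0.08 when replicate 2 was. The same test called 4 of the 14 lower in the WT step, but no member had a called difference between the genotypes: for Rag1 the IkL/L step minus the WT step was 0.94 (adjusted p = 0.271).

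Of the 14 tested Notch target genes 4 fell and 0 rose, with a median of -0.27. Hes1, a transcriptional repressor gene that is a direct Notch target, read 7.36 and 8.04 in IkL/L DN4 cells and 10.01 and 9.81 in IkL/L DN3 cells (-2.21 ± 0.25; adjusted p = 0.000325). Its stages lay apart, as did those of every called gene. Hes5 fell by 0.63 (adjusted p = 0.0349), a call that did not hold in 5 of 12 leave-one-out fits (1 array left out in turn; highest adjusted p 0.268) and absent from its second bright probe set (-0.09). Il2ra and Notch3 are the other called members. Both are also among the 4 called DN3 genes, so the lists are not independent. Il2ra counts in the cytokine list below as well, although its fall may follow from the sort. Dtx1, which encodes the Notch regulator Deltex, read 7.98 and 8.46 in DN4 cells and 9.06 and 9.34 in DN3 cells without passing (-0.98; adjusted p = 0.113). Notch1 (-0.27), Myc (0.16) and Gata3 (-0.07) did not pass.

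The Hes5 promoter is shown because it holds the letters TGGGAA, a core shared by binding sites of Ikaros and of the Notch effector Rbpj. The window runs from 250 bases before to 50 after the annotated start and was taken from RefSeq (GRCm38.p6, chr4:154960673-154960972, plus strand); capitals mark TGGGAA on either strand, of which there are 2.
Hes5: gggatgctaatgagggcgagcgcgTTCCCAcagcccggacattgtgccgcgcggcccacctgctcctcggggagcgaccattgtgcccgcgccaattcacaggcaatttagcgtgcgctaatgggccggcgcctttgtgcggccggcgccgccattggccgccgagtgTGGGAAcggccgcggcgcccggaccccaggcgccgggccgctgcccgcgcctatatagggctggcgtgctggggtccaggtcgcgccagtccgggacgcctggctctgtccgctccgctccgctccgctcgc
These letters stand in 25.6% of the 32851 promoters of that table, in 26.7% of the 135 promoters of genes that rose in the step and in 26.1% of the 395 promoters of genes that fell, against 22.9% of the 12047 promoters of all tested genes. Promoter entries were found for 63 of the 85 genes that the naming rule gave over all comparisons.

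Cytokine receptor and SOCS genes fell where they changed. Of 21 tested members 5 fell and 0 rose, with a median of -0.21. That median turned to 0.05 without IkL/L DN3 replicate 1 and was -0.47 without IkL/L DN3 replicate 2. The test called 3 falls when either IkL/L DN4 array was left out. Besides Il2ra, Socs2 and Socs3 these were Kit, the stem cell factor receptor gene, and Il17rb, a receptor gene of innate-like T cells. On its second bright probe set Kit gave -0.32 (adjusted p = 0.475). On the brightest it read 6.58 and 6.45 in IkL/L DN4 cells and 8.43 and 7.27 in IkL/L DN3 cells (-1.33 ± 0.27; adjusted p = 0.015). Its DN3 arrays differed widely, and the difference was -0.75 without IkL/L DN3 replicate 1, while the call was lost without IkL/L DN4 replicate 1 or 2 (adjusted p up to 0.117). Il17rb (-0.73) was not called in 7 of 12 leave-one-out fits (highest adjusted p 0.276). Il7r, the interleukin receptor gene on which DN3 cells depend, read 8.76 and 8.56 in DN4 cells and 9.67 and 9.57 in DN3 cells and did not pass (-0.96; adjusted p = 0.347), although it was called with the 4 IkL/L arrays alone (adjusted p = 0.0313). Cish, another SOCS-family gene, was at -0.78 (adjusted p = 0.112).

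STAT factors, which carry the signals of these receptors, bind palindromes of the form TTCNNNGAA. The Socs3 promoter window (RefSeq, GRCm38.p6, chr11:117969317-117969616, minus strand) is printed with its 1 match in capitals.
Socs3: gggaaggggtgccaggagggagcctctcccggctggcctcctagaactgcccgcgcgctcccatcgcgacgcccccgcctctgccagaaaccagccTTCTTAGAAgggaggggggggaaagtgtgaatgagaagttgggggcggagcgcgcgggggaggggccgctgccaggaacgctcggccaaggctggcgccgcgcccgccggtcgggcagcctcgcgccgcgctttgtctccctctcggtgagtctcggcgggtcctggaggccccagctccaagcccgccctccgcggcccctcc
Such a match stands in 10.9% of the promoters of genes that fell, in 5.19% of those that rose, in 7.01% of those of all tested genes and in 8.30% of all promoters in the table. These shares are descriptions, since genes with several starts count more than once.

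Genes induced by TCR or pre-TCR signals moved in both directions. Of 24 tested members 2 rose (Cd6 and Id3) and 2 fell (Ctla4 and Dusp5), with a median of -0.11. Without IkL/L DN3 replicate 1 there were 4 rises and 3 falls (median -0.18), and without IkL/L DN3 replicate 2 there were 0 and 1 (median -0.21). Id3, an inhibitor of E proteins that pre-TCR signals induce, read 10.17 and 10.24 in IkL/L DN4 cells and 9.55 and 9.29 in IkL/L DN3 cells (0.78 ± 0.20; adjusted p = 0.0437). Cd6, a co-receptor gene of T cells, rose by 0.90. Ctla4, the gene of an inhibitory receptor, read 6.92 and 6.64 in DN4 cells and 8.40 and 8.45 in DN3 cells (-1.65 ± 0.22; adjusted p = 0.00113). The phosphatase gene Dusp5 fell by 1.06. Ctla4 stayed called without each array, whereas Id3, Cd6 and Dusp5 each failed the threshold in at least 3 of the leave-one-out fits (highest adjusted p 0.222, 0.106 and 0.317).

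Both surface markers of pre-TCR signalling, Cd5 and Cd2, missed the threshold. Their DN4 arrays lay wholly above their DN3 arrays, as was the case for 20.5% of all tested genes. Cd5 read 8.66 and 8.15 in IkL/L DN4 cells and 7.62 and 7.02 in IkL/L DN3 cells (1.09; adjusted p = 0.0531). Cd2 read 7.76 and 7.50 in DN4 cells and 6.53 and 6.21 in DN3 cells (1.26; adjusted p = 0.0651), and with the 4 arrays alone it was called (adjusted p = 0.0231). Cd69, an activation marker, lay the other way, at 5.67 and 6.5 in DN4 cells and 7.05 and 8.19 in DN3 cells (-1.53; adjusted p = 0.109). Of 21 proximal TCR signalling genes 1 was called, close to the 4.40% of all tested genes. Cblb, a ubiquitin ligase gene that restrains TCR signals, fell by 1.30 (adjusted p = 0.000437). Zap70 (0.18) and Cd3e (-0.45) did not pass.

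DP stage genes had a positive median difference. Of 23 tested members 3 rose (Cd8b1, Sh2d1a and Satb1) and 1 fell (Ccr9), with a median of 0.46 that was 0.22 without IkL/L DN3 replicate 2. Satb1, a chromatin organiser gene of thymocytes, read 13.01 and 13.24 in IkL/L DN4 cells and 12.63 and 12.26 in IkL/L DN3 cells (0.68 ± 0.14; adjusted p = 0.019). Ccr9, the receptor gene for the thymic chemokine CCL25, read 9.76 and 10.15 in DN4 cells and 10.92 and 10.94 in DN3 cells (-0.98 ± 0.16; adjusted p = 0.00429). Its IkL/L step minus its WT step was -1.42 (adjusted p = 0.06). Cd8a (0.80; adjusted p = 0.0807) and Cd4 (0.46; adjusted p = 0.262) did not pass. The list's counts of rises and falls were 7 and 1 without IkL/L DN3 replicate 1 and 2 and 2 without IkL/L DN3 replicate 2. Satb1 lost its call without IkL/L DN3 replicate 2 or IkL/L DN4 replicate 2 (adjusted p up to 0.185), and Ccr9 without IkL/L DN4 replicate 1 (adjusted p = 0.0586). The second bright probe set of Ccr9 gave -0.98 too, the other 3 gave -0.06, -0.45 and -0.33.

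**Figure D2:**
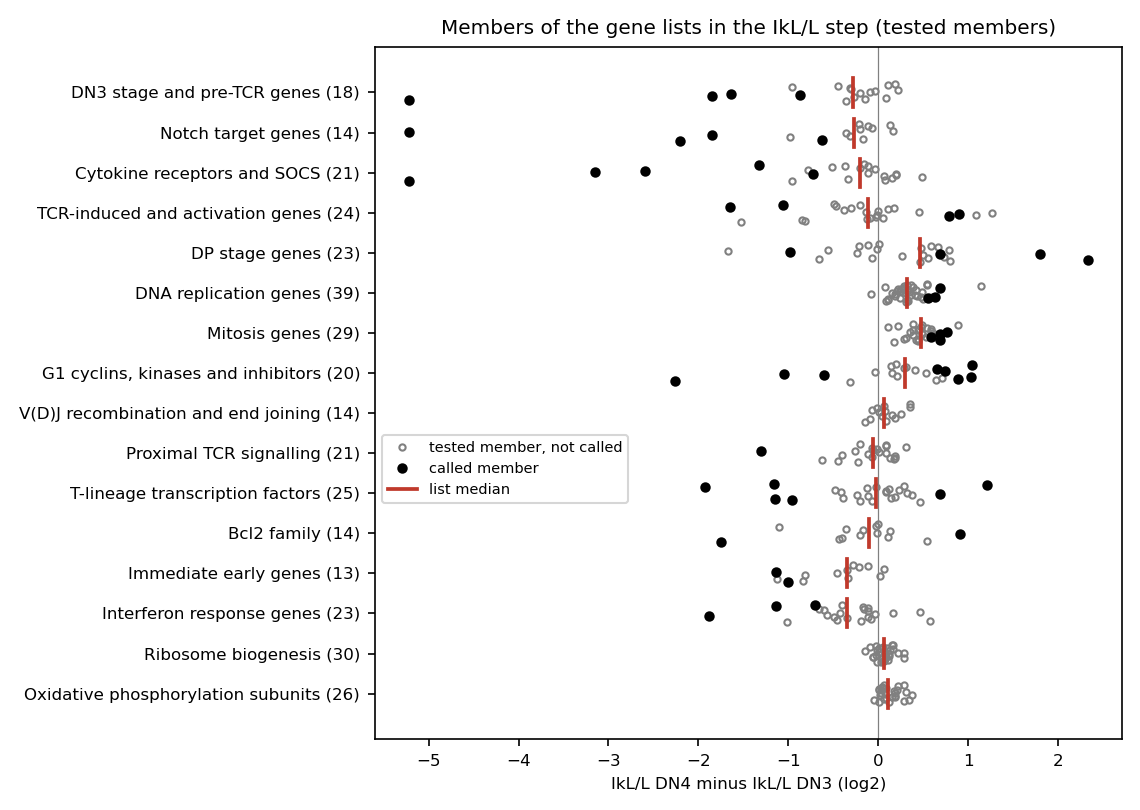
Log2 difference, IkL/L DN4 minus IkL/L DN3 (horizontal axis), of each tested member of 16 gene lists (the number of tested members in brackets); filled points are called members, open points are not called, and the bar is the list median. Called members of the DN3, Notch and cytokine lists lie left of 0, and those of the replication and mitosis lists lie right of 0.

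Cell cycle genes had small positive differences. In the mitosis list all 29 tested members had a positive difference, between 0.11 and 0.88 with a median of 0.47, and 4 rose: Kif11 (0.76), a spindle motor gene, the centromeric histone gene Cenpa (0.69), the cyclin gene Ccnb2 (0.68) and the kinase gene Aurkb (0.59). Of 39 DNA replication genes 38 had a positive difference, with a median of 0.32, and 3 rose: Rpa3 (0.68), Gins1 (0.63) and the origin licensing gene Cdc6 (0.55). No member of either list fell. These 7 calls were fragile: without IkL/L DN4 replicate 1 or 2 none of them was made in limma (the medians stayed between 0.32 and 0.49), and the highest adjusted p for a single gene was 0.291, for Aurkb. After a second quantile normalization 2 mitosis and 0 replication genes were called, with medians of 0.38 and 0.25. The second bright probe set of Cenpa gave 0.47 (adjusted p = 0.557), and with probe sets averaged Cenpa was not called (0.39, adjusted p = 0.168).

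Ccnb2 shows the size of these shifts. It read 11.40 and 11.37 in IkL/L DN4 cells and 10.82 and 10.59 in IkL/L DN3 cells. Mki67, a marker of cycling cells, read 13.43 and 13.47 in IkL/L DN4 cells and was already at 13.31 and 13.26 in IkL/L DN3 cells (0.17; adjusted p = 0.638). Pcna (0.29; adjusted p = 0.398) and Top2a (0.44; adjusted p = 0.199) did not pass.

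Regulators of the G1 phase changed more and in opposite directions. Of 20 tested members 5 rose and 3 fell, with a median of 0.30 (0.56 without IkL/L DN3 replicate 1 and 0.13 without IkL/L DN3 replicate 2). The transcription factor gene E2f2 read 10.63 and 10.76 in IkL/L DN4 cells and 9.61 and 9.69 in IkL/L DN3 cells (1.04 ± 0.20; adjusted p = 0.00977). Cdk2 (1.03) and its cyclin partner gene Ccne1 (0.89) rose with it, as did Cdkn2c (0.74), which encodes an inhibitor of Cdk4 and Cdk6, and Rb1. Ccnd2, a cyclin gene that acts earlier in G1, read 9.41 and 9.12 in DN4 cells and 11.60 and 11.44 in DN3 cells (-2.26 ± 0.53; adjusted p = 0.0333). The inhibitor gene Cdkn1a fell by 1.05 and Cdk6 by 0.61. Ccnd3, the cyclin gene on which dividing thymocytes depend, was at 0.64 (adjusted p = 0.217).

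The stages of Ccnd2 lay far apart, but the SE pools all groups, including IkL/L DP arrays at 4.49 and 6.87, and 8 of 12 leave-one-out fits did not call the gene (highest adjusted p 0.195). The second to seventh probe sets of Ccnd2, by brightness, were each called, between -2.34 and -1.17. E2f2, Ccne1, Cdkn2c, Cdkn1a and Cdk6 missed the threshold in at least 2 such fits each (highest adjusted p 0.0955, 0.109, 0.166, 0.0575 and 0.27), and Cdk2 without IkL/L DN4 replicate 2 (adjusted p = 0.0683). The list's counts of rises and falls were 3 and 0 without IkL/L DN4 replicate 1, and 0 and 0 without IkL/L DN4 replicate 2.

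E2F factors, which drive the genes of S phase, bind sites with the letters GCGGGAA. The promoter windows of the 3 risen cell cycle genes that hold these letters are printed to show where the letters lie; capitals mark GCGGGAA on either strand. Positions are RefSeq, GRCm38.p6: Cdc6 at chr11:98907901-98908200 (plus strand), Cdk2 at chr10:128705002-128705301 (minus strand) and 1 of the 2 Cdkn2c windows at chr4:109666707-109667006 (minus strand).
Cdc6: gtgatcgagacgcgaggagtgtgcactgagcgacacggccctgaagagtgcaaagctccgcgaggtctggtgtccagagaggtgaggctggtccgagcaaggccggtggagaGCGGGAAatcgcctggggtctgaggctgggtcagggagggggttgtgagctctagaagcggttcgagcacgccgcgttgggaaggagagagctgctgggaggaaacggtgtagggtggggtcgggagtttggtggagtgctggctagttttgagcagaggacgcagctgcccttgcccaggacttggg
Cdk2: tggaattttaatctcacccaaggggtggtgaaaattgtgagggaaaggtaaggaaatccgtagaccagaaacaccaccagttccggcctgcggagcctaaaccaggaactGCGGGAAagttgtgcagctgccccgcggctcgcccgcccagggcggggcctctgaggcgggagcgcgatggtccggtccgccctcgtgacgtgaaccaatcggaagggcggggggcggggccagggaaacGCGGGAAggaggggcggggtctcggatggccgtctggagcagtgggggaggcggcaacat
Cdkn2c: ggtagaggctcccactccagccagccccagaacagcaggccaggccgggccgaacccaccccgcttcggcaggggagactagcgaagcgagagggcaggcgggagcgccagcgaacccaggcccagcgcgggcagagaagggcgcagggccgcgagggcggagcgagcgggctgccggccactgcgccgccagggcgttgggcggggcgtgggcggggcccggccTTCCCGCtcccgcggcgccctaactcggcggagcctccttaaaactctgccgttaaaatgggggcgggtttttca
The letters stand at 2 places in the Cdk2 window and at 1 place in the Cdc6 window and the Cdkn2c window shown. The other Cdkn2c window in the table (chr4:109665323-109665622) holds none. They were found in 15.6% of the promoters of genes that rose in the step, in 4.81% of those of genes that fell, in 8.04% of those of all tested genes and in 4.60% of the whole table. Of the 12 risen members of the mitosis, replication and G1 lists 9 had an entry and 3 held the letters. Among all tested members of those lists it was 17 of 72, of which 13 were replication genes and 1 was a mitosis gene. A match is a run of letters and not a measured site.

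Several transcription factor genes of the T lineage changed. Of 25 tested members 2 rose (Ikzf3 and Satb1) and 4 fell (Bach2, Ikzf4, Runx3 and Runx1), with a median of -0.03. Ikzf3, which encodes the Ikaros relative Aiolos, read 8.64 and 8.97 in IkL/L DN4 cells and 7.49 and 7.69 in IkL/L DN3 cells (1.21 ± 0.16; adjusted p = 0.00103). Ikzf4, which encodes the relative Eos, read 5.87 and 5.92 in DN4 cells and 7.02 and 7.09 in DN3 cells (-1.16 ± 0.14; adjusted p = 0.000513). Thus both relatives changed, in opposite directions. When 1 array was left out in turn, the difference was 1.05 to 1.38 for Ikzf3 and -1.19 to -1.13 for Ikzf4.

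The repressor gene Bach2 fell by 1.93, Runx3 by 1.15 and Runx1 by 0.96. Each lost its call without at least 1 IkL/L array (adjusted p up to 0.0851, 0.13 and 0.0709). The second bright probe set of Runx1 gave -1.48 and the other 4 between -0.46 and -0.07, and that of Runx3 was not called (adjusted p = 0.998). The other bright probe sets of Bach2 gave -1.58 (adjusted p = 0.142) and -0.26 (adjusted p = 0.498). With the 4 IkL/L arrays alone, Bach2, Runx3 and Runx1 were called (adjusted p = 0.00306, 0.0229 and 0.0283). Bcl11b (-0.21; adjusted p = 0.416), a T-lineage commitment factor gene, did not pass. Of 7 E protein and Id genes Id3 alone was called.

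Survival and adhesion genes changed singly. Of 14 Bcl2 family genes 1 rose and 1 fell. Bcl2, the survival gene of DN cells, read 9.21 and 9.33 in IkL/L DN4 cells and 11.28 and 10.75 in IkL/L DN3 cells (-1.75 ± 0.27; adjusted p = 0.00319). Bid, a death-promoting member, rose by 0.91, but its other bright probe sets were not called. They gave 0.39 (adjusted p = 0.334) and 0.51 (adjusted p = 0.3). Bcl2l1, which protects DP cells, was at 0.54 (adjusted p = 0.0566) and Mcl1 at -0.44 (adjusted p = 0.131). Bcl2 and Bid stayed called without each array, and of the 4 other bright probe sets of Bcl2 those at -0.91 and -2.03 were called and those at -0.85 and -1.0 were not. Of 20 integrin and adhesion genes the beta integrin gene Itgb2 rose by 1.20, and Itga4 (-0.79) and the E-cadherin gene Cdh1 (-0.87) fell. The second bright probe set of Itga4 gave -0.33 (adjusted p = 0.58) and the third -0.65 (adjusted p = 0.0205). Itgb2 and Itga4 each lost the call without 1 IkL/L DN4 array (adjusted p up to 0.0676 and 0.0668).

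Markers of other cell types were examined because sorted cells can hold others. Of 15 tested myeloid genes (25 on the array) 2 fell, Lyz1 and Lyz2, and 0 rose. The bright probe sets of Lyz1 gave -3.31 and -3.06, and a dim one gave -0.28 (adjusted p = 0.357). Whether the bright ones tell Lyz1 from Lyz2 was not tested, so the falls may not be independent. Lyz2, the lysozyme gene of macrophages and neutrophils, read 5.76 and 5.21 in IkL/L DN4 cells and 8.28 and 7.45 in IkL/L DN3 cells (-2.38 ± 0.28; adjusted p = 0.000448). The summed linear signal of the list was 1360 and 938 in DN4 cells and 3537 and 1787 in DN3 cells, and in both stages replicate 1 was the higher. S100a8, a neutrophil gene, read 7.09 and 4.49 in DN4 cells and 8.96 and 5.33 in DN3 cells, so that replicates differed more than stages (-1.36; adjusted p = 0.57). S100a9, Ngp and Camp showed the same order of arrays. Of the defining markers, Csf1r read 5.83 and 5.76 in DN4 cells and 6.0 and 6.0 in DN3 cells, and Itgam and Mpo lay below the array median on all 4 arrays.

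**Figure D3:**
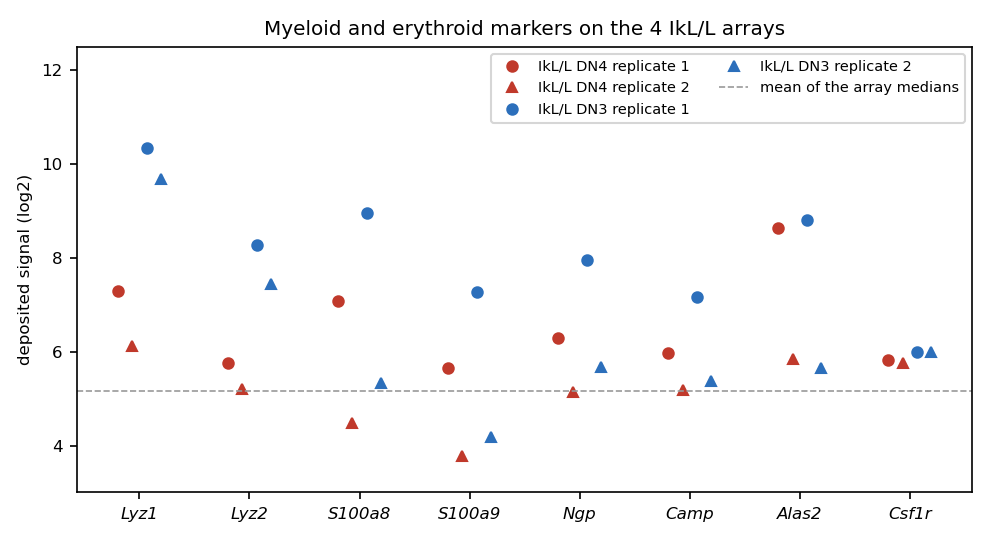
Deposited signal (log2, vertical axis) of 7 myeloid markers and the erythroid gene Alas2 on the 4 IkL/L arrays; colour gives the stage, circles are replicate 1 and triangles replicate 2, and the dashed line is the mean of the array medians. Lyz1 and Lyz2 part the stages, whereas S100a8, S100a9, Ngp, Camp and Alas2 are higher on replicate 1 of both stages.

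Without IkL/L DN3 replicate 1, where neutrophil genes were highest, Lyz1 and Lyz2 remained the 2 called myeloid genes, and the median of the list became 0.18. Leaving out IkL/L DN3 replicate 2 gave 5 lower myeloid genes and a median of -0.36, against -0.20 with all arrays. Lyz1 and Lyz2 also fell in the WT step (-2.89 and -1.48). The part of other cells in these falls was not tested. Of 8 erythroid genes Gata1 alone was called (-0.60, not called in 3 of 12 leave-one-out fits, highest adjusted p 0.185), and Alas2 read 8.64 and 5.85 in DN4 cells and 8.80 and 5.65 in DN3 cells. The summed erythroid signal was 3013 and 2716 in DN4 cells and 2598 and 2321 in DN3 cells.

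Of 7 tested B cell genes 1 fell. Vpreb1, a surrogate light chain gene, read 5.91 and 6.27 in IkL/L DN4 cells and 8.53 and 7.73 in IkL/L DN3 cells (-2.04 ± 0.23; adjusted p = 0.000317), and the summed B cell signal was 13011 and 13979 in DN4 cells and 13896 and 11507 in DN3 cells, so those sums overlapped. Rag1 and Ighm, with means of 12.71 and 12.84 (log2) over all arrays, are on that list. Its sum therefore does not measure B cells alone. Of 12 dendritic cell and MHC class II genes Ccr9 alone fell, and the sum was 3268 and 3568 in DN4 cells and 4923 and 5036 in DN3 cells. Ccr9, counted above as a DP stage gene, is part of this sum, which does not measure dendritic cells alone. The dendritic marker Itgax lay below the array median on all 4 arrays.

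Among 11 gamma-delta, NK and cytotoxic genes Maf rose, and Nkg7 and Il17rb fell; the sum was 8433 and 10015 in DN4 cells and 8871 and 8320 in DN3 cells. Among 13 mature T cell genes Ctla4 fell, with a sum of 3171 and 3030 in DN4 cells and 4619 and 3518 in DN3 cells. Among 15 stem and progenitor genes 3 fell: Nfe2 (-2.13), a haematopoietic factor gene, Cd93 (-1.85), a surface marker of early progenitors, and Kit. Nfe2 and Cd93 stayed called without each array. The stem and progenitor sum was 1341 and 1216 in DN4 cells and 1852 and 1537 in DN3 cells. None of 10 thymic stroma genes was called in limma, and their sum was 609 and 622 in DN4 cells and 652 and 669 in DN3 cells.

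The step was then compared with that of WT cells. In the WT step the test called 1078 genes (9.25%), 181 higher (1.55%) and 897 lower (7.70%). Of the 372 genes lower in the IkL/L step 285 were called lower in the WT step (76.6% of the IkL/L genes and 31.8% of the WT genes), and of the 140 higher 51 were called higher (36.4% and 28.2%). The direction was shared by 363 of the 372 and 129 of the 140. The genes lower in the IkL/L step had a median of -1.0 there and -1.03 in the WT step, and those higher had 0.74 in the IkL/L step and 0.44 in the WT step. Of the genes selected by the WT calls, those lower had -0.47 in the IkL/L step and -0.83 in the WT step, and those higher had 0.34 and 0.67, so in 3 of the 4 sets the median was larger in the genotype whose calls chose the genes. Across the tested genes the steps correlated with r = 0.67 (genes are not independent replicates). The number of calls is no measure of the size of a step. The spread between replicates differed by group, with a median absolute difference of 0.209 for IkL/L DN3 and 0.111 for WT DN3. At DN4 the order was the other way round, with 0.135 for IkL/L and 0.149 for WT cells. The fit pooled the spread of each gene over all groups.

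**Figure D4:**
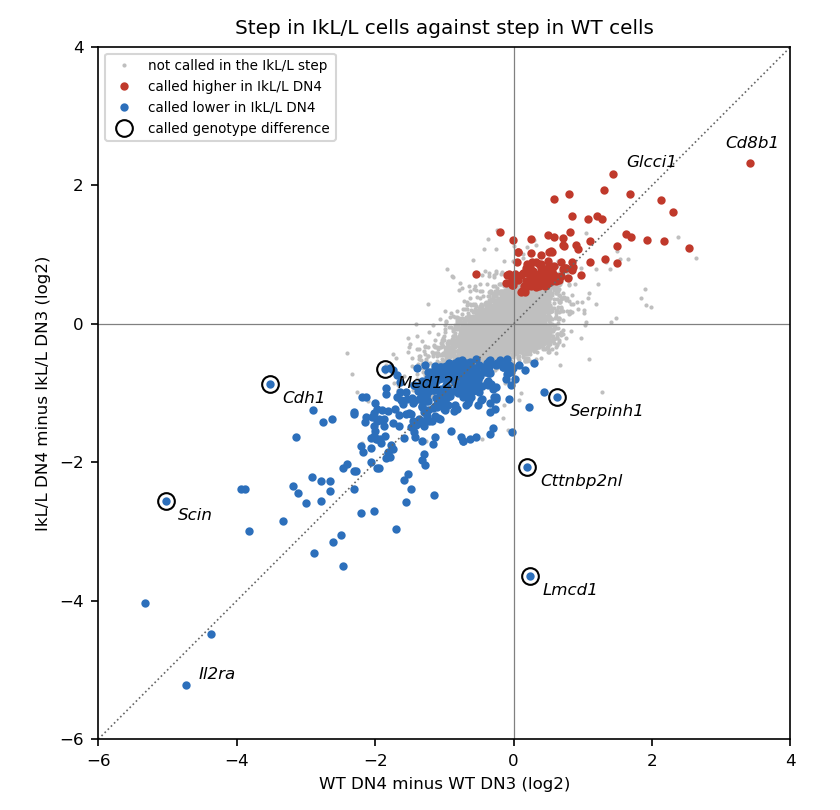
IkL/L DN4 minus IkL/L DN3 (vertical axis, log2) against WT DN4 minus WT DN3 (horizontal axis, log2) for 11649 tested genes; red and blue points are genes called higher and lower in the IkL/L step, rings mark the 6 genes with a called genotype difference, and the dotted line marks equal steps. Il2ra and Cd8b1 lie at opposite ends of both steps, and Lmcd1 and Cttnbp2nl fall in IkL/L cells while lying near 0 on the WT axis.

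The difference of the steps itself, IkL/L minus WT, passed the test for 6 genes (0.0515%), 3 of them positive (0.0258%) and 3 negative (0.0258%). At an unadjusted p under 0.05 there were 1126. The median difference over all genes was 0.085, and -0.057 after a second quantile normalization. Lmcd1 had the most negative one. It read 6.75 and 6.02 in IkL/L DN4 cells and 10.25 and 9.81 in IkL/L DN3 cells, while all WT DN arrays lay below the array median, at 4.68 and 4.94 in WT DN4 cells and 4.51 and 4.64 in WT DN3 cells. The IkL/L step was -3.64 and the WT step 0.24, a difference of -3.88 (adjusted p = 0.000273).

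Cttnbp2nl, which encodes a regulator of the actin-binding protein cortactin, behaved alike. It read 5.45 and 5.48 in IkL/L DN4 cells and 7.65 and 7.43 in IkL/L DN3 cells, against 4.37 and 3.95 in WT DN4 cells and 3.82 and 4.09 in WT DN3 cells (difference -2.27; adjusted p = 0.0127). All of these WT values lay below the array median. In the fit over all probe sets this probe set missed the threshold (adjusted p = 0.0754). The other, dim probe sets of Cttnbp2nl gave differences of -0.43 and -0.1. With probe sets averaged, Cttnbp2nl dropped out of the test. Serpinh1, the gene of a collagen chaperone, was the 1 gene called in opposite directions in the 2 genotypes. It read 5.50 and 5.58 in IkL/L DN4 cells and 6.74 and 6.45 in IkL/L DN3 cells, against 5.83 and 5.69 in WT DN4 cells and 5.21 and 5.06 in WT DN3 cells. It fell by 1.06 in the IkL/L step (adjusted p = 0.00147), and in the WT step it rose by 0.63 (adjusted p = 0.0204), a difference of -1.69 (adjusted p = 0.0119).

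Among the positive differences, Cdh1 and Scin were genes that WT cells express at DN3. Cdh1 read 3.43 and 3.47 in IkL/L DN4 cells and 4.41 and 4.23 in IkL/L DN3 cells, all below the array median, against 4.40 and 4.42 in WT DN4 cells and 8.06 and 7.80 in WT DN3 cells. Its step was -0.87 in IkL/L cells and -3.52 in WT cells (difference 2.65; adjusted p = 0.000214), and IkL/L levels below the median limit the step that can be measured. Scin, which encodes an actin-severing protein, read 4.24 and 4.09 in IkL/L DN4 cells and 7.01 and 6.44 in IkL/L DN3 cells, against 4.74 and 4.81 in WT DN4 cells and 9.96 and 9.64 in WT DN3 cells (difference 2.47; adjusted p = 0.00221). DN4 levels of both genes lay below the array median in both genotypes, so each step is a lower limit.

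Med12l, a gene for a Mediator kinase module subunit, read 7.44 and 7.34 in IkL/L DN4 cells and 8.14 and 7.95 in IkL/L DN3 cells, against 5.39 and 5.28 in WT DN4 cells and 7.18 and 7.22 in WT DN3 cells. It fell in both steps (-0.65 in IkL/L cells and -1.86 in WT cells), a difference of 1.21 (adjusted p = 0.0473). Lmcd1, Cdh1 and Scin stayed called without each array (adjusted p up to 0.0058, 0.00423 and 0.0337). Cttnbp2nl, Serpinh1 and Med12l missed the threshold in 4 or more of the leave-one-out fits (highest adjusted p 0.102, 0.102 and 0.257), and when probe sets were averaged neither Med12l (0.37; adjusted p = 0.532) nor Serpinh1 (-1.14; adjusted p = 0.14) was called.

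**Figure D5:**
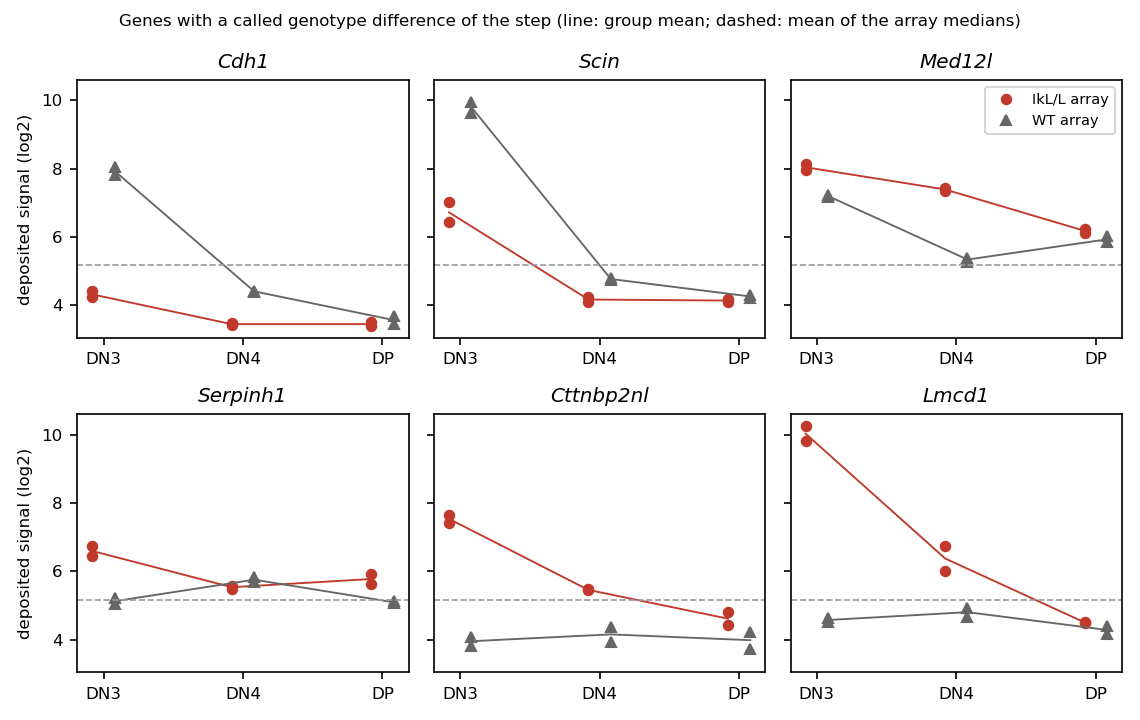
Deposited signal (log2, vertical axis) of the 6 genes with a called genotype difference of the step, by stage (horizontal axis) in IkL/L cells (circles) and WT cells (triangles); each point is 1 array, lines join the group means, and the dashed line is the mean of the array medians. Cdh1 and Scin start lower in IkL/L DN3 cells than in WT DN3 cells, and Lmcd1 and Cttnbp2nl start higher.

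For the DN3 and Notch genes the differences of the steps did not pass, apart from Cdh1. Of the 18 DN3 genes 4 fell in the IkL/L step and 10 in the WT step, with medians of -0.28 and -0.67. Dtx1 differed by 1.28 (adjusted p = 0.407), Ptcra by 1.01 (adjusted p = 0.317), Notch1 by 0.78 (adjusted p = 0.317), Hes1 by 0.69 (adjusted p = 0.555) and Spib by 1.5 (adjusted p = 0.18). Called members with a negative difference were Il2ra (-0.48; adjusted p = 0.623) and Hes5 (-0.19; adjusted p = 0.797). Over all 18 tested DN3 genes 14 differences were positive and 4 negative, with a median of 0.35, and over the 14 Notch target genes 9 were positive and 4 negative, with a median of 0.19, against 0.085 over all genes. Cd8b1 rose by 2.33 in the IkL/L step and by 3.42 in the WT step, a difference of -1.09 (adjusted p = 0.324).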

How the data were processed

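RNA of 12 samples was hybridised to Affymetrix arrays after a labelling protocol with 2 rounds, in 3 amounts of RNA that the labels do not assign to samples, and labelling as a batch was therefore left untested. The authors deposited log2 signals, 1 per probe set and array, made with RMA per the submitters' processing notes (version not given in the sources used here). Arrays have no read depth; their number limits the precision. Probe sets carried 1 symbol (34958 of 45099), several (932) or none (9209) in the platform table, and only the first were used. Of these, 34754 had a gene ID in the reference table, which changed 0 symbols. Each of 18194 genes was represented by its brightest probe set, and 11649 that reached the array median on 2 or more arrays were tested. Another 6545 were not.

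limma 3.58.1 (R 4.3.3, statmod 1.5.0) was fitted with 1 mean per group over 12 arrays (6 residual and 5.67 prior degrees of freedom), and calls needed an adjusted p (Benjamini-Hochberg over all tested genes) under 0.05. Every adjusted p in the text is from limma, and values per probe set are from a fit over all probe sets. The contrasts were the IkL/L step, the WT step and their difference. The rule for named genes gave Ikzf1, the 15 largest rises and 15 largest falls of the step among called genes with stages that did not overlap, up to 8 differences between genotypes in each direction, and up to 4 called members per direction of each of 38 gene lists, with defining members as values. Unnamed transcripts were skipped. The comparison, the lists and the members described were chosen with earlier results of these data known, and the motifs and printed promoters after the calls were seen. Alternatives were another filter or none, probe set means, every probe set, a trend and robust prior, array weights, centring, a second quantile normalization, replicate blocks, fits of only the contrast's arrays, fits without single arrays or the IkL/L replicate 2 arrays, an actin covariate and a minimum log2 difference of 1. The fit was tested on simulated data.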

Additional observations from a re-analysis of the deposited data

Results flagged for a closer look

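For 6 genes the step differed between IkL/L and WT cells by the test of the difference itself (limma, adjusted over all tested genes, 2 arrays per group). The difference, IkL/L step minus WT step, was -3.88 for Lmcd1 (adjusted p = 0.000273), -2.27 for Cttnbp2nl (adjusted p = 0.0127) and -1.69 for Serpinh1 (adjusted p = 0.0119). It was 2.65 for Cdh1 (adjusted p = 0.000214), 2.47 for Scin (adjusted p = 0.00221) and 1.21 for Med12l (adjusted p = 0.0473). In the IkL/L step each of the 6 genes fell, and its DN4 arrays lay wholly below its DN3 arrays. Cdh1 and Scin read below the array median at DN4 in both genotypes. Lmcd1 and Cttnbp2nl did so on all WT DN3 and DN4 arrays. Such levels limit the steps that could be measured. In the limma fit over all probe sets, Cttnbp2nl, Serpinh1 and Med12l missed the threshold (adjusted p = 0.0754, 0.0514 and 0.0976).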

How the results depend on the processing

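The 512 calls of the IkL/L step were 221 with its 4 arrays alone, 230 without the 3 IkL/L replicate 2 arrays, 815 with the actin covariate, 223 at a minimum log2 difference of 1, and 211 to 592 when 1 array was left out. The 6 genotype differences were 3 with a filter at the 75th percentile, 3 with probe set means, 3 over every probe set, 13 with a trend and robust prior, 13 with array weights, 10 after a second quantile normalization, 12 without the IkL/L replicate 2 arrays, 28 with the actin covariate, and 3 to 20 when 1 array was left out. The 1078 WT calls were 2157 with array weights, 1983 with the contrast's arrays alone, 1806 with the actin covariate, 345 at a minimum log2 difference of 1, and 340 to 1314 when 1 array was left out; a second quantile normalization called 385 genes higher and 687 lower (35.9% higher, against 16.8%). The labels do not say that a replicate number marks shared mice, and the deviations do not settle it. For arrays with the same number they correlated with r = 0.494 between IkL/L DN3 and DN4, 0.086 between IkL/L DN3 and DP and 0.015 between IkL/L DN4 and DP, and with r = 0.317, 0.147 and 0.271 for the same pairs of stages in WT cells. All 3 IkL/L replicate 2 arrays lacked Y-linked signal, a hint from the data, not from the design, of a shared source within that genotype. The 4 tested sex-linked genes had means of 5.48 to 5.73 (log2) on these arrays. On the IkL/L replicate 1 arrays they had 8.39 to 8.81, and on the WT arrays 7.83 to 9.12. The IkL/L pairs thus differed in this signal and the WT pairs did not, and the main fit held no term for it. With the replicate number as a block over all arrays, the test called 481 genes in the step and 6 differences, with a replicate block within genotype 768 and 14, and with that block random 744 and 17. All 512 genes remained called with either block within genotype. The fixed one also called 8 described genes: Dtx1, Cd69 and Egr1 lower, and Cd8a, Cd2, Cd5, Bcl2l1 and Ccnd3 higher. The block over all arrays called Dtx1, Cd2 and Egr1 too and lost 8 calls (Hes5, Ccnb2, Aurkb, Ccnd2, Cdk6, Fos and Parp14 in the step, and the difference of Med12l). Of 81 genes named for the step, 44 stayed called without each array, 37 lost the call without at least 1, and 0 changed sign. Signal near background limits what can be measured of the deepest falls.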

Other observations

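Interferon response and immediate early genes had negative differences in the IkL/L step. Of 23 interferon response genes 3 fell (Oasl2 by 1.88, Trim30a by 1.14 and Parp14 by 0.70) and 20 had a negative difference, with a median of -0.35 against -0.002 over all genes (-0.22 without IkL/L DN3 replicate 1). In the WT step 11 of the 23 fell, and no member had a called difference between the genotypes. Oasl2 and Trim30a stayed called without each array, and Parp14 was not called in 10 of 12 leave-one-out fits (highest adjusted p 0.201). Of 13 immediate early genes Ier3 (-1.14) and Fos (-1.0) fell, with a median of -0.35 (-0.69 without IkL/L DN3 replicate 2, -0.56 without IkL/L DN4 replicate 2); Fos was not called in 3 of those fits (highest adjusted p 0.195). Of 12 genes for MHC class I and antigen processing none was called in limma, with a median of -0.32 (-0.18 without IkL/L DN3 replicate 1, -0.19 without IkL/L DN4 replicate 1).

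Growth and metabolic genes lay close to 0. Since 4.40% of all tested genes were called, 1 call among 25 genes is near that share and says little about a list. None of 26 oxidative phosphorylation genes (median 0.11), 30 ribosome biogenesis genes (0.06), 18 cytosolic ribosomal protein genes (0.02), 15 cholesterol synthesis genes (-0.17), 22 chaperone genes (0.00) and 13 genes for subunits of the chromatin remodeller NuRD (0.06) was called in limma. The aldolase gene Aldoc fell by 1.47 among 18 glycolysis genes. The cystine transporter gene Slc7a11 rose by 0.90 among 16 amino acid transporter genes (0.17 on its second bright probe set, adjusted p = 0.698), a call missing from 2 of those fits. Of 25 Polycomb genes Phc3 fell by 0.63, a call missing from 3 (highest adjusted p 0.2). Of 4 replication histone genes H1f2 fell by 1.14, and without IkL/L DN4 replicate 2 the adjusted p was 0.07. Of 14 p53 target genes Cdkn1a alone was called, and of 6 chemokine and migration receptor genes Ccr9 alone was called. None of the 4 tested sex-linked genes was called in limma.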
